A study of Mus musculus with 11 samples.

Results

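The 7 protein components of the mouse synaptonemal complex that the UMI table lists under the symbols Sycp1, Sycp2, Sycp3, Syce1, Syce2, Syce3 and Tex12 were followed from spermatogonia to pachytene spermatocytes. They were matched by symbol, as 7 of the 20389 gene rows. All 7 were detected and passed the filter on low counts, which left 11186 genes for testing.

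Synaptonemal complexes are the zipper-like protein structures that hold paired homologous chromosomes together in meiotic prophase. SYCP2 and SYCP3 build the lateral elements along each chromosome axis, SYCP1 forms the transverse filaments that bridge the gap between homologues, and SYCE1, SYCE2, SYCE3 and TEX12 make up the central element in the middle. Axes form at leptotene, synapsis starts at zygotene and is complete at pachytene. SYCE2 and TEX12 bind each other and are known to assemble into fibres along the central element, and loss of these proteins arrests mouse spermatocytes in prophase.

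The study sorted single live GFP-positive cells from testes of 3 adult mice carrying a Dazl-GFP reporter, a transgene for a germ cell RNA-binding protein, into plates and counted polyadenylated RNA by SORT-Seq. Unique molecular identifiers (UMIs, random tags that mark original molecules) were used for counting. Mouse 1 gave 8 CEL-Seq1 libraries, mouse 2 gave 1 CEL-Seq2 library, and mouse 3 gave 2 CEL-Seq2 libraries, of which 1 was sorted by gate and the other by index sorting like all libraries of mice 1 and 2. No animal was treated, the labels give no age beyond adult, and the protocol cannot be told apart from the difference between mouse 1 and the other mice. Stages were therefore compared within animals, with the mouse as the replicate (n = 3).

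Of 1920 wells, 1448 had at least 1000 UMIs, with medians of 16275, 9830 and 14132.5 UMIs per kept well in mice 1, 2 and 3. Clustering on odd-numbered autosomes, without the 7 components and the 3 gene lists described later, gave 12 ordered stages with 1285 wells, 14 to 89 wells for each mouse and stage. Stage 1 was undifferentiated spermatogonia-like, stage 2 differentiating spermatogonia-like, stage 4 preleptotene-like, stages 6 to 8 leptotene/zygotene-like and stages 9 to 12 pachytene-like. Stages 3 and 5 were left unnamed. Stage 3 was led by protamine genes, with 10 of 123 wells over 0.1% of UMIs in spermatid markers, and stage 5 had the highest sum of 9 Sertoli cell markers, with 8 of the 9 detected and 224 to 704 CPM in the 3 mice (CPM, UMIs of a gene per 1000000 UMIs of the mouse and stage), against 1.86 to 149.7 CPM in the other 11 stages. The summed preleptotene markers were also highest at stage 5, at 3855 CPM on average. They averaged 1332 CPM at stage 4, 2588 CPM at stage 6 and 1380 CPM at stage 7. Stra8 headed the genes that marked stage 5, and the name of stage 4 is therefore uncertain. The name of stage 8 is uncertain too, with summed leptotene/zygotene markers of 1677 CPM and pachytene markers of 3114 CPM on average. Unnamed stage 5 held 3769 CPM of leptotene/zygotene markers, more than stage 7 (3491 CPM) and less than stage 6 (6498 CPM). Later comparisons group stages 6 to 8 and leave out stage 5. Among these 12 stages, a group without stage 8 or with stage 5 was not tested. Dazl was present in every stage and mouse, from 3667 CPM on average at stage 8 to 287 CPM at stage 12, whereas a GFP UMI was seen in 3.5% to 6.8% of staged wells. Polyadenylated RNA per cell was measured as UMIs of autosomes, X and Y per UMI of the ERCC spike-in RNA added to each well. It fell to 0.258 times its stage 1 value at stage 7 and reached 3.03 times that value at stage 12. CPM therefore gives a share of the counted RNA of a cell, and the amount per ERCC UMI is given beside it.

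Promoter windows of the components were examined because their transcripts accumulated together at the entry into meiosis. RefSeq start sites were matched for all 7 genes, and 4 of them are shown as the 250 bases upstream of the start, on GRCm38 (mm10) and in the direction of transcription, in lower case with matches to the E-box CACGTG and to the E2F-type motif GCGGGAA in capitals. Sycp1 (chr3:102936101-102936350, minus strand), Sycp3 (chr10:88459337-88459586, plus strand) and Tex12 (chr9:50561269-50561518, minus strand) are shown because they hold matches. Syce1 (chr7:140787855-140788104, minus strand) is shown as an example with neither motif. The windows of Sycp2 and Syce3, not shown, also held neither, and that of the second Syce2 start, not shown, held both.
Sycp1: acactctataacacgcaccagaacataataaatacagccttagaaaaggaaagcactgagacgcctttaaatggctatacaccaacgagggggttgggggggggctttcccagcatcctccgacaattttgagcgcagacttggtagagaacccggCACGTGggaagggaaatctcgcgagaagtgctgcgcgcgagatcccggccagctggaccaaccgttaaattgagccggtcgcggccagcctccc
Sycp3: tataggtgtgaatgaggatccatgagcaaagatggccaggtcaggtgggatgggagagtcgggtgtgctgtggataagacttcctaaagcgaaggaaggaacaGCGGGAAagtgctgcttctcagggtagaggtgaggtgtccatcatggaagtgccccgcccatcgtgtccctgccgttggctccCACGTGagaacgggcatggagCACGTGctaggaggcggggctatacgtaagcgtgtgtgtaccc
Tex12: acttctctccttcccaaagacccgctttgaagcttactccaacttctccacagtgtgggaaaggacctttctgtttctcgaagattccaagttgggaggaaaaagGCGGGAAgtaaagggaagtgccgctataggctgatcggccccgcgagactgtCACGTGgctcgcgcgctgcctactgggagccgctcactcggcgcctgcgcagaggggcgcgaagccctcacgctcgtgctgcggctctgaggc
Syce1: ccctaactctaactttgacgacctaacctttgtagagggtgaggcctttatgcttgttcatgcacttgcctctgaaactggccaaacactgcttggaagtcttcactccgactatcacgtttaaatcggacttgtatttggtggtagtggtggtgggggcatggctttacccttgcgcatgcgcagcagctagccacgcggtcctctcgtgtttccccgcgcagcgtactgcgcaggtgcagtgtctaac
Over windows of 300 bases (250 before and 50 after the start, both strands searched), CACGTG had 1 match for Sycp1, 1 for Tex12, 2 for Sycp3 and 1 for the second of 2 Syce2 starts. No match was found in the windows of Sycp2, Syce1 and Syce3. Of all 32851 such windows in the RefSeq table, 7.15% held the E-box. GCGGGAA was found in the windows of Sycp3, Tex12 and the second Syce2 start, against 4.6% of all windows. The 8-letter motif CNCCTCAG, reported for the meiotic initiator STRA8, occurred in the Sycp1, Tex12 and second Syce2 windows, against 7.94% of all. A MYB motif, CAACNG or TAACNG, was also searched and matched in every component window except that of Tex12, against 49.7% of all. Shares are per window, and Syce2 and Syce3 had 2 windows each. A match describes letters in the window and says nothing of binding, which was not measured.

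All 7 components were present at a low share of RNA in spermatogonia and rose steeply from stage 4 to leptotene/zygotene-like stage 6. The unnamed stage 5 between them had the highest preleptotene markers. Their sum was 1442 ± 32.6 CPM at stage 1 (SD, n = 3), 2477 ± 85.1 CPM at stage 4, 5893 ± 449.7 CPM at stage 5 and 10680 ± 329 CPM at stage 6. It was highest at stage 8, 11070 ± 1272 CPM, and declined to 3826 ± 233 CPM at stage 12. The 3 mice did not overlap between stages 4, 5 and 6, and the mice of stages 6, 7 and 8 overlapped. How often other genes separate in this way was not counted.

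**Figure D1:**
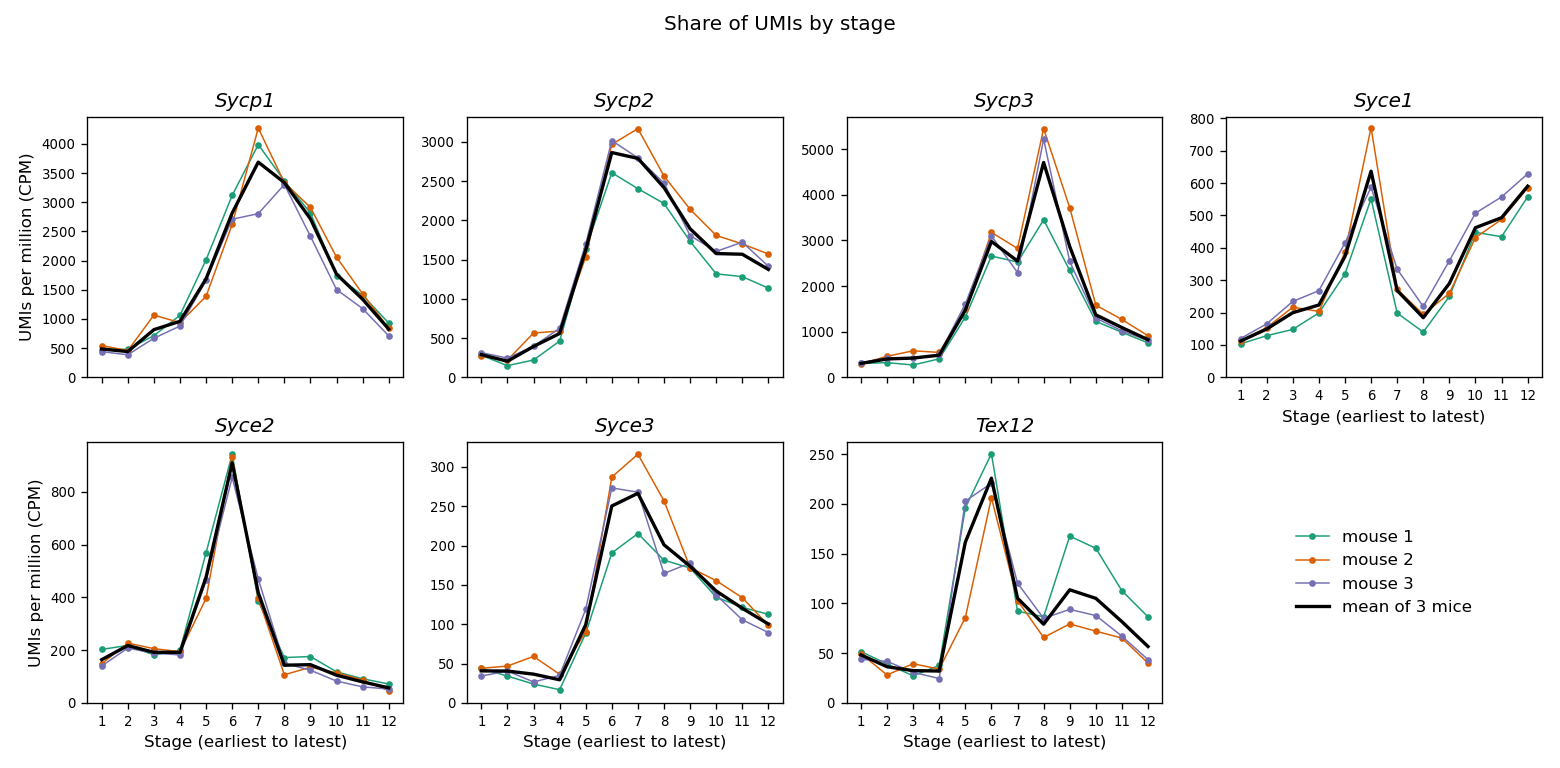
Counts per 1000000 UMIs (CPM, y axis, linear from 0) of each component over the 12 stages (x axis), with 1 coloured line per mouse and the mean of the 3 mice in black. Shares climb between stages 4 and 6 in all 7 panels, Sycp3 is highest at stage 8, Syce2 has a narrow maximum at stage 6, and Syce1 rises again up to stage 12.

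Lateral element genes had the largest rises. Sycp2, which encodes an axis protein that anchors SYCP3 to chromosome cores, stood at 280.1, 272 and 314 CPM in mice 1, 2 and 3 at stage 1 and at 2607, 2969 and 3017 CPM at stage 6. Sycp3, which encodes the fibre-forming axis protein, stood at 303, 294 and 313 CPM at stage 1 and at 3450, 5449 and 5219 CPM at stage 8. Every mouse at the later stage was above every mouse at the earlier stage for both genes. The later stage was the one with the highest mean of the gene, which favours such a separation. How many of all genes separate in this way was not counted. Sycp1, the transverse filament gene, stood at 472, 544 and 439.6 CPM at stage 1 and at 3988, 4271 and 2805 CPM at stage 7, where mouse 3 was lowest and did not reach its own maximum until stage 8.

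Central element genes rose from lower starting levels, and since each RNA gives 1 tag at its 3′ end, CPM needs no correction for length. Syce1 stood at 103, 113 and 119.6 CPM at stage 1 and at 551, 771 and 587 CPM at stage 6. Syce2 stood at 203, 148 and 140.0 CPM at stage 1 and at 942, 933 and 854 CPM at stage 6. Mice did not overlap between these stages for either gene, where the later stage was again that of the highest mean. The share of all genes that separate so was again not counted. Syce3, a small protein needed to load the other central element proteins, stood at 43.9, 43.9 and 34.0 CPM at stage 1 and at 215, 316 and 268 CPM at stage 7. Tex12, the partner of SYCE2, stood at 51.6, 49.4 and 43.8 CPM at stage 1 and at 251, 206 and 221 CPM at stage 6. Both were lowest at stage 4, where only 43 UMIs of Syce3 and 46 UMIs of Tex12 were counted over all wells, so that small differences among the early stages were not detectable at this depth for these 2 genes.

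Leptotene/zygotene-like stages 6 to 8 were compared with spermatogonia-like stages 1 and 2 to ask which components are raised at meiotic entry. All 7 were higher (edgeR quasi-likelihood test, adjusted p under 0.05), where 27.6% of all genes tested were higher. Sycp2 rose by a log2 fold change of 3.50 ± 0.10 (SE, adjusted p = 9.13e-27, 11.3-fold), from 214, 245 and 279 CPM to 2409, 2901 and 2763 CPM in mice 1, 2 and 3. Sycp3 rose by 3.27 ± 0.09 (adjusted p = 1.73e-34, 9.63-fold), from 312, 377 and 369 CPM to 2877, 3816 and 3537 CPM. Both axis genes therefore had groups of values that lay far apart in every mouse.

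Sycp1 rose by 2.86 ± 0.09 in log2 units (adjusted p = 5.07e-29), and Syce3 rose by 2.59 ± 0.13 (adjusted p = 4.34e-24). The other central element genes rose less, with Tex12 at 1.61 ± 0.16 (adjusted p = 1.26e-12), Syce1 at 1.31 ± 0.09 (adjusted p = 5.16e-19) and Syce2 at 1.07 ± 0.10 (adjusted p = 4.38e-14). Each of the 7 changed in the same direction in 3 of 3 mice. The median of the 7 was 2.59, beside -0.18 for all genes tested.

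Per ERCC UMI, which follows the amount of RNA in a well, the same comparison split the components. Sycp2 (1.80 ± 0.12, log2 fold change ± SE), Sycp3 (1.55 ± 0.11), Sycp1 (1.13 ± 0.11) and Syce3 (0.89 ± 0.17) were higher, 4 of 7 where 2.94% of all genes were higher. Syce1 (-0.40 ± 0.13, adjusted p = 0.00321) and Syce2 (-0.65 ± 0.12, adjusted p = 2.07e-06) were lower, 2 of 7 where 83.9% of all genes were lower. Tex12 was not called (-0.10 ± 0.18, adjusted p = 0.59). The median of all genes tested was -1.85 on this scale, so all 7 components lay above it. Syce1 lost its call without mouse 1 (-0.24, adjusted p = 0.138), the CEL-Seq1 animal.

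**Figure D2:**
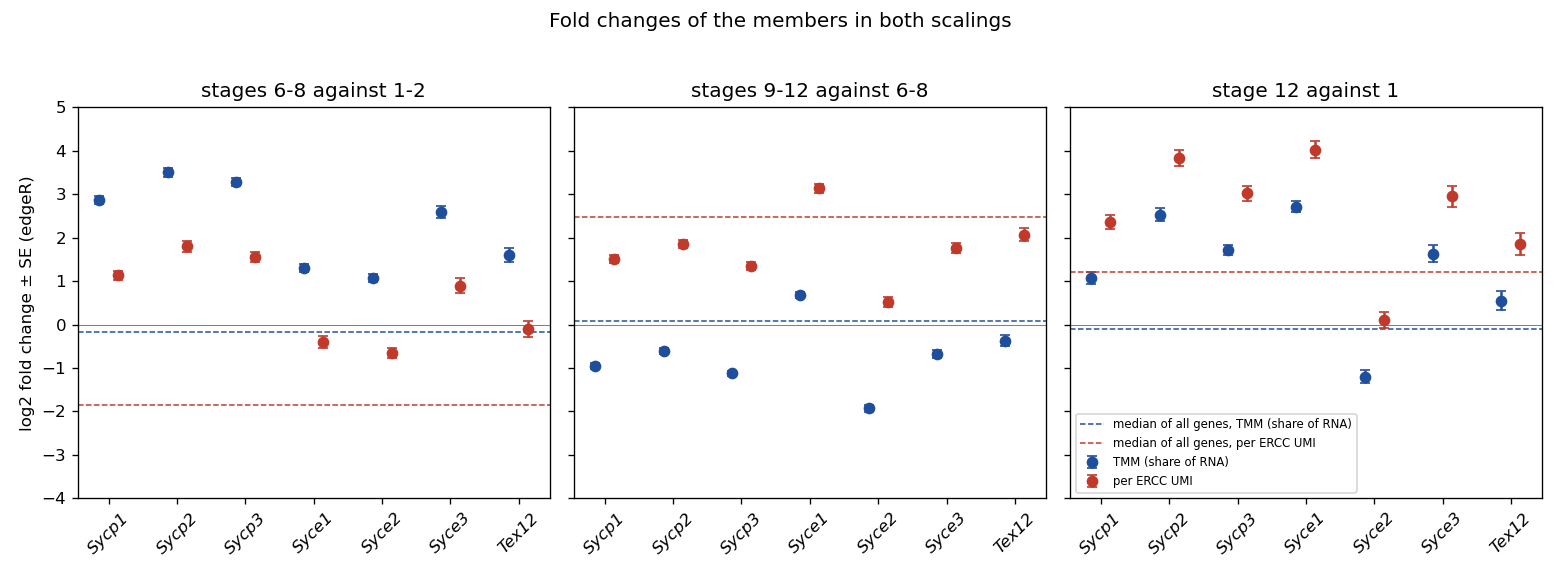
edgeR log2 fold changes ± SE (y axis) of the 7 components (x axis) in the 3 comparisons, in blue with TMM scaling, which compares shares of RNA, and in red per ERCC UMI. Dashed lines mark the median of all 11186 genes in each scaling. In the middle panel 6 blue points lie below 0 and all 7 red points above it.

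The steps between neighbouring stages placed the rise. From stage 4 to stage 5 all 7 components were higher, where 13.2% of all genes were higher, with Tex12 at a log2 fold change of 2.45 ± 0.27 (SE), Syce3 at 1.84 ± 0.27, Sycp3 at 1.65 ± 0.13 and Sycp2 at 1.60 ± 0.14. Syce2 (1.35 ± 0.15), Sycp1 (0.86 ± 0.13) and Syce1 (0.77 ± 0.13) completed the set. From stage 5 to stage 6 the components rose again except Tex12 (0.48 ± 0.25, adjusted p = 0.279), 6 of 7 where 3.09% of all genes were higher. Per ERCC UMI all were higher at the first of these steps except Syce1 (0.45, adjusted p = 0.0706), where 6.37% of all genes were higher, and Sycp2, Sycp3, Syce2 and Syce3 were higher at the second, where 0.545% were. Removing wells rich in spermatid or Sertoli markers, an alternative chosen after seeing the data, changed no component's call at either step.

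Before stage 5 the changes were small and differed among the components. From stage 1 to stage 2, Sycp3 (0.41 ± 0.12, log2 fold change ± SE), Syce1 (0.45 ± 0.13) and Syce2 (0.45 ± 0.15) were called higher and Sycp2 lower (-0.50 ± 0.15), where 13.7% of all genes were higher and 13.6% lower. From stage 2 to stage 3, Sycp1 (0.88 ± 0.13) and Sycp2 (0.90 ± 0.15) rose by similar amounts and Syce1 by less (0.41 ± 0.13), where 8.13% of all genes were higher. From stage 3 to stage 4 only Sycp2 was called (0.48 ± 0.14), where 2.11% of all genes were higher. All 4 calls at the first step were lost without 1 or more animals or libraries: without mouse 1 for Sycp2 (-0.39) and Syce1 (0.43), without mouse 2 for Sycp3 (0.33) and Syce2 (0.41), without mouse 3 for Sycp3 (0.34), Syce1 (0.38) and Syce2 (0.32), and without the gate-sorted library for Syce1 and Syce2 (0.38 each). Syce1 lost its call at the second step without mouse 2 (0.38), mouse 3 (0.33) or the gate-sorted library (0.40), and Sycp2 lost its call at the third without mouse 1 (0.37) or mouse 3 (0.47). Per ERCC UMI 5 of 7 were lower at the second step, where 58.3% of all genes were lower: Sycp3 (-0.80), Syce1 (-0.43), Syce2 (-1.01), Syce3 (-1.09) and Tex12 (-1.07), while Sycp1 (0.04) and Sycp2 (0.07) were not called.

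After stage 6 the components parted. From stage 6 to stage 7, 3 central element genes fell, Syce1 by 1.28 ± 0.14 on the log2 scale, Syce2 by 1.15 ± 0.15 and Tex12 by 1.18 ± 0.28, where 7.13% of all genes were lower. Sycp1, Sycp2, Sycp3 and Syce3 were not called at that step, with values from -0.25 for Sycp3 to 0.34 for Sycp1. Sycp1 was called higher there without the filter on low counts (0.34, adjusted p = 0.0397), with collision-corrected transcripts (0.38, adjusted p = 0.0232) and without wells rich in spermatid or Sertoli markers (0.37, adjusted p = 0.0259). Sycp3 was called lower with median-ratio size factors (-0.36, adjusted p = 0.0291) and without mouse 1 (-0.39, adjusted p = 0.0437). From stage 7 to stage 8, Sycp3 rose by 0.99 ± 0.12 (adjusted p = 7.61e-09), where 10.6% of all genes were higher, and had its maximum at stage 8 in 3 of 3 mice. Syce2 fell by 1.40 ± 0.16 (adjusted p = 2.03e-09) and Syce1 by 0.41 ± 0.14 (adjusted p = 0.033), where 7.01% of all genes were lower. The Syce1 call was lost without mouse 1 (-0.38), mouse 2 (-0.44) or mouse 3 (-0.41) and without the gate-sorted library (-0.41), and per ERCC UMI its value was 0.15.

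From stage 8 to stage 9, Sycp3 fell by 0.71 ± 0.11 in log2 units (adjusted p = 2.13e-06) while Syce1 rose by 0.68 ± 0.13 (adjusted p = 3.01e-05), where 16.6% of all genes were lower and 17.1% higher. Sycp1 (-0.30 ± 0.12), Sycp2 (-0.35 ± 0.13) and Tex12 (0.55 ± 0.22) passed the threshold narrowly. Sycp1 lost its call without mouse 1 (-0.31), mouse 3 (-0.21) or the gate-sorted library (-0.25), Sycp2 without mouse 3 (-0.29) or that library (-0.33), and Tex12 without mouse 1 (0.22) or mouse 2 (0.62). Per ERCC UMI, where 50.9% of all genes were higher, Sycp1 (0.64) and Sycp2 (0.56) were higher at this step and Sycp3 stood at 0.23 (adjusted p = 0.191). From stage 9 to stage 10, Sycp3 fell by 0.99 ± 0.12 (adjusted p = 2.07e-09), Sycp1 by 0.56 ± 0.12 and Syce2 by 0.44 ± 0.15, and Syce1 rose by 0.74 ± 0.11 (adjusted p = 8.59e-07), where 11.7% of all genes were lower and 15.4% higher. The Syce2 call was lost without mouse 1 (-0.30), mouse 3 (-0.35) or the gate-sorted library (-0.32). In amount per ERCC UMI the falls of Sycp1 and Syce2 at that step reversed (0.74 and 0.90), where 77.1% of all genes were higher, and Sycp3 was at 0.31 (adjusted p = 0.0542). From stage 10 to stage 11 edgeR called 0 of 7 components, 4 of which had an unadjusted p under 0.05, where 0.465% of all genes were called. Syce1 (0.36 ± 0.11) rose and Sycp1 (-0.60 ± 0.12) fell from stage 11 to stage 12, where 5.33% of all genes were higher and 1.84% lower, and both calls were lost without the gate-sorted library of mouse 3 (0.38 and -0.45). The Syce1 call was also lost without mouse 1 (0.33), mouse 2 (0.37) or mouse 3 (0.41).

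Pachytene-like stages 9 to 12 were compared with leptotene/zygotene-like stages 6 to 8 to ask whether the components stay at their entry levels once synapsis is under way. As a share of RNA, 6 of 7 were lower, where 30.2% of all genes were lower, and Syce1 was higher, where 36.9% of all genes were higher. Syce2 fell most, by 1.93 ± 0.08 on the log2 scale (adjusted p = 8.03e-28), from 499.9, 479 and 491 CPM to 114, 95.6 and 79.8 CPM in mice 1, 2 and 3. The earlier values average stages 6, 7 and 8, where the mean Syce2 was 909.9, 417.4 and 142.7 CPM. At pachytene-like stage 9 its mean was 144.8 CPM, and its step from stage 8 to 9 was not called. Most of its fall in CPM thus lay within stages 6 to 8. Sycp3 fell by 1.12 ± 0.06 (adjusted p = 6.96e-22), from 2877, 3816 and 3537 CPM to 1326, 1868 and 1414 CPM. In these averages over stages, no mouse at the later stages reached the lowest mouse at the earlier ones for these 2 genes. The number of all genes for which this holds was not counted. Single stages overlapped. Sycp3 stood at 2341, 3716 and 2537 CPM at stage 9 in mice 1, 2 and 3, against 2524, 2823 and 2293 CPM at stage 7. Syce2 stood at 175.6, 135.0 and 123.8 CPM at stage 9, against 171.7, 106.5 and 150.0 CPM at stage 8.

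Sycp1 fell by 0.95 ± 0.07 in log2 units (adjusted p = 3.68e-17), Syce3 by 0.68 ± 0.10 (adjusted p = 8.5e-09) and Sycp2 by 0.60 ± 0.07 (adjusted p = 2.45e-09). Syce1 rose by 0.67 ± 0.07 (adjusted p = 1.99e-12), with 296.5, 412.5 and 379.9 CPM at the earlier stages and 422, 441 and 513 CPM at the later ones. Mouse 2 rose least in Syce1, and in every mouse the later value was the higher. Tex12 was called lower (-0.37 ± 0.13, adjusted p = 0.00763), but with 143 and 131 CPM mouse 1 hardly moved, whereas mice 2 and 3 went from 125 and 142 CPM to 64.2 and 73.1 CPM. That call was lost without mouse 2 (-0.28, adjusted p = 0.092), without mouse 3 (-0.14, adjusted p = 0.484), without the gate-sorted library (-0.29, adjusted p = 0.0752) and without the mouse as a block (-0.36, adjusted p = 0.0949), and with at least 20 wells per sum it stood at 0.17 (adjusted p = 0.304).

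Per ERCC UMI all 7 components were higher in the pachytene-like stages, where 86.4% of all genes were higher. Syce1 was raised most (3.13 ± 0.11, log2 fold change ± SE, 8.75-fold) and Syce2 least (0.52 ± 0.11, 1.44-fold), with Tex12 at 2.07 ± 0.14, Sycp2 at 1.86 ± 0.09, Syce3 at 1.76 ± 0.12, Sycp1 at 1.51 ± 0.09 and Sycp3 at 1.35 ± 0.09. All genes tested had a median of 2.47 on this scale, so 6 components gained less than the median gene and Syce1 gained more. The direction of the pachytene change thus depended on the scaling for those 6 genes, whereas Syce1 was higher in both. As a share of RNA, the Syce1 rise was against the average of stages 6 to 8, with 636.6, 268.1 and 184.2 CPM. Its mean at stage 12, 590.3 CPM, did not exceed that of stage 6. The maximum was at stage 12 in mice 1 and 3 and at stage 6 in mouse 2.

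**Figure D3:**
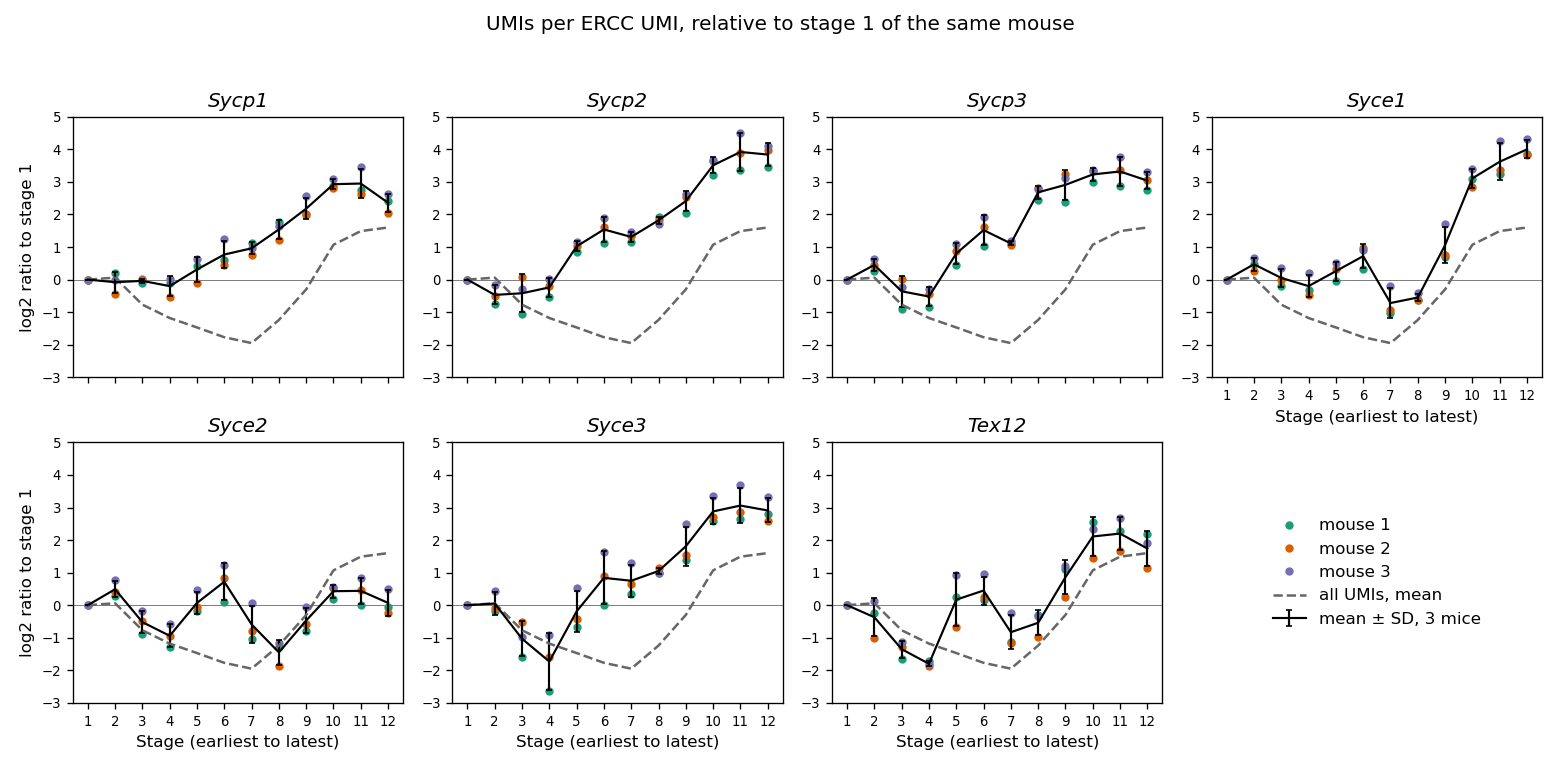
log2 ratio of UMIs per ERCC UMI to stage 1 of the same mouse (y axis) for each component over the 12 stages (x axis), with points for the 3 mice, their mean ± SD in black and the mean for all UMIs as a dashed grey line. Sycp1, Sycp2, Sycp3 and Syce3 stay above the dashed line from stage 5 on, and Syce2 falls below it from stage 8 on.

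Stage by stage the amounts per ERCC UMI were read against stage 1 of the same mouse. Sycp3 stood at 1.11 ± 0.06 (mean log2 ratio ± SD, n = 3) at stage 7, at 2.68 ± 0.20 at stage 8 and at 3.32 ± 0.44 at stage 11. Syce1 stood at -0.55 ± 0.12 at stage 8, below its spermatogonial amount in 3 of 3 mice, and at 4.00 ± 0.28 at stage 12, above it in 3 of 3. Syce2 stood at -1.45 ± 0.38 at stage 8 and came back to 0.07 ± 0.39 at stage 12, where only 1 of 3 mice was above its own stage 1. Syce3 and Tex12 had their lowest amounts at stage 4, at -1.73 ± 0.87 and -1.80 ± 0.08, with a wide spread between mice for Syce3. All UMIs together stood at -1.18 ± 0.19 at stage 4.

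The latest stage was compared with the earliest to give the net change over the series. As a share of RNA, 6 of 7 components were higher at stage 12 than at stage 1, where 36.3% of all genes were higher, and Syce2 was lower, where 39.9% were lower. Syce1 rose by 2.71 ± 0.13 in log2 units (SE, adjusted p = 7.35e-26), from 103, 113 and 119.6 CPM to 557, 585 and 629 CPM in mice 1, 2 and 3. Sycp2 rose by 2.53 ± 0.15 (adjusted p = 3.93e-18), from 280.1, 272 and 314 CPM to 1136, 1571 and 1415 CPM. Mice did not overlap between the stages for either gene. The share of all genes that separate so was not counted, here or for Syce2 below.

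Sycp3 rose by 1.72 ± 0.12 in log2 units (adjusted p = 8.36e-18), Syce3 by 1.63 ± 0.19 (adjusted p = 2.61e-11) and Sycp1 by 1.07 ± 0.13 (adjusted p = 2.98e-10). Syce2 fell by 1.20 ± 0.15 (adjusted p = 3.48e-10), from 203, 148 and 140.0 CPM to 71.7, 46.5 and 52.4 CPM, again without overlap. Tex12 was called higher (0.55 ± 0.22, adjusted p = 0.0198), yet its CPM was higher in mouse 1 alone, 86.5 against 51.6, and lower in mouse 2, 40.0 against 49.4, and in mouse 3, 43.4 against 43.8. TMM factors, which rescale each sum, ran from 0.799 to 1.14, and the Tex12 call was lost with median-ratio size factors (0.38, adjusted p = 0.0935), with DESeq2 (0.36, adjusted p = 0.16), without the mouse block (0.53, adjusted p = 0.187), without mouse 1 (0.31, adjusted p = 0.293) and without mouse 3 (0.60, adjusted p = 0.0535).

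Per ERCC UMI, stage 12 held more of 6 components than stage 1, where 60.6% of all genes were higher. Syce1 was at 4.02 ± 0.20 (log2 fold change ± SE, 16.2-fold), Sycp2 at 3.83 ± 0.18 (14.2-fold), Sycp3 at 3.02 ± 0.17 and Syce3 at 2.95 ± 0.24. Sycp1 (2.36 ± 0.17) and Tex12 (1.86 ± 0.25) also lay above the median of 1.22 of all genes. Syce2 was not called (0.10 ± 0.19, adjusted p = 0.649), with 1 of 3 mice above its stage 1.

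Ratios of UMIs between components of 1 sum do not depend on either scaling, and 5 of them, each within the central element or among the SYCP genes, were followed. There were 1.48 ± 0.42 UMIs of Syce2 per UMI of Syce1 at stage 1 (SD, n = 3), 1.60 ± 0.30 at stage 7 and 0.0971 ± 0.0273 at stage 12. The values at stage 12 were 0.129, 0.0795 and 0.0834 in mice 1, 2 and 3, all below the lowest value at stage 7, 1.41 in mouse 3. Syce2 per Tex12, the pair that forms a complex, stood at 3.375 ± 0.487 at stage 1 and at 6.20 ± 1.64 at stage 2, with 151 UMIs of Tex12 at stage 2. It was 3.98 ± 0.18 at stage 7, near its stage 1 value, and 1.07 ± 0.21 at stage 12. Syce1 per Syce3 was lowest at stage 8, 0.952 ± 0.327, and highest at stage 4, 8.38 ± 3.20, with 5.97 ± 1.04 at stage 12.

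The ratio between the lateral element genes had low values at stages 2 and 8. Sycp2 per Sycp3 stood at 0.951 ± 0.046 at stage 1 (SD, n = 3), at 0.505 ± 0.062 at stage 2, at 0.963 ± 0.025 at stage 6, at 0.529 ± 0.098 at stage 8 and at 1.66 ± 0.14 at stage 12. The 3 mice gave 0.463, 0.476 and 0.576 at stage 2, which overlapped with 0.642, 0.471 and 0.474 at stage 8, and at stage 12 they gave 1.51, 1.73 and 1.76. Sycp1 per Sycp3 ranged from 0.741 ± 0.204 at stage 8 to 2.04 ± 0.55 at stage 3, where mouse 1 was highest at 2.66. No test was run on the ratios.

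**Figure D4:**
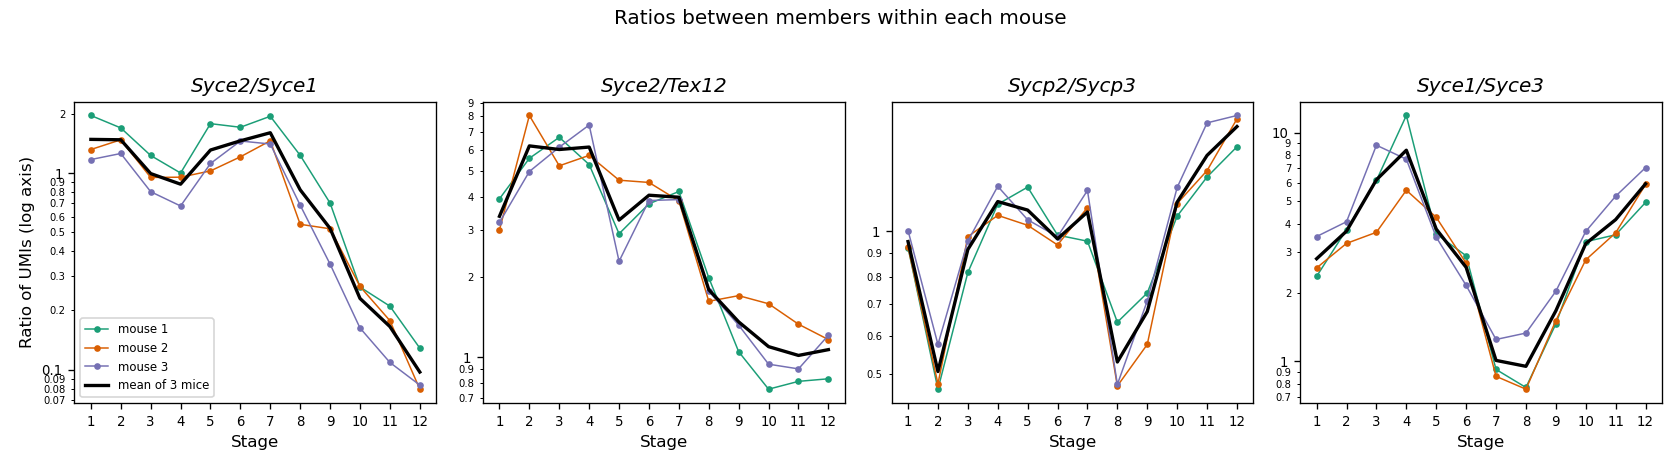
Ratios of UMIs (y axes, log scale) between pairs of components over the 12 stages (x axis), with 1 coloured line per mouse and their mean in black. Syce2 per Syce1 falls from 1.60 at stage 7 to 0.0971 at stage 12, and Sycp2 per Sycp3 is lowest at stages 2 (0.505) and 8 (0.529).

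Profiles over the 36 sums of mouse and stage, as log2(CPM + 1) centred on each mouse, gave Pearson r of 0.91 to 0.95 among Sycp1, Sycp2 and Sycp3 and of 0.86 to 0.91 between these and Syce3. Tex12 had r of 0.74 to 0.79 with the 3 SYCP genes and 0.83 with Syce3. Syce1 was nearer to Sycp2 (0.67) than to Sycp1 (0.41), and Syce2 had r of 0.18 to 0.33 with the SYCP genes and close to 0 with Syce1. These are descriptions over sums that share stages and libraries.

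The 5 genes whose profile was most like the mean of the 7 components were Iqcb1 (r = 0.966 over 36 sums), Hfm1 (0.958), a helicase of meiotic crossover formation, Cenpq (0.946), Pigf (0.942) and Yipf4 (0.941). Stx16 was nearest to Sycp1 (0.965), Dnajc3 to Sycp2 (0.978), Iqcb1 to Sycp3 (0.957) and Hfm1 to Syce3 (0.947). Zcwpw1, a histone reader of meiotic prophase, was nearest to Syce2 (0.965), Chchd6 to Syce1 (0.932) and Garnl3 to Tex12 (0.907). The next nearest were Iqcb1 and Meiob for Sycp1, Hfm1 and Atr for Sycp2, Stk17b and Meiob for Sycp3, Ppp3cc and Aldh1a2 for Syce1, Swt1 and Pak1 for Syce2, Odf2l and Ccdc73 for Syce3, and Cul1 and Rnf138 for Tex12.

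Well by well, at an equal depth of 3000 UMIs, the SYCP components were found in nearly all wells at meiotic entry and in fewer wells before it. After each well was thinned to 3000 UMIs, which left out 0 to 34 shallower wells per stage, a Sycp3 UMI was found in 63.3% ± 10.3 of wells at stage 1 (SD, n = 3), in 78.0% ± 9.6 at stage 4, in 100% at stages 5 to 9 and in 91.0% ± 3.1 at stage 12. Syce2 UMIs were found in 37.7% ± 3.9 of wells at stage 1, in 91.1% ± 4.6 at stage 6 and in 16.1% ± 4.0 at stage 12, where the 3 mice gave 12.5% to 20.5%. Tex12 was found in 54.1% ± 4.5 of wells at stage 6 and in 12.4% ± 5.6 at stage 12. All 7 together were seen in 17.1% ± 5.6 of wells at stage 6 and in 0.952% ± 1.6 at stage 4.

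**Figure D5:**
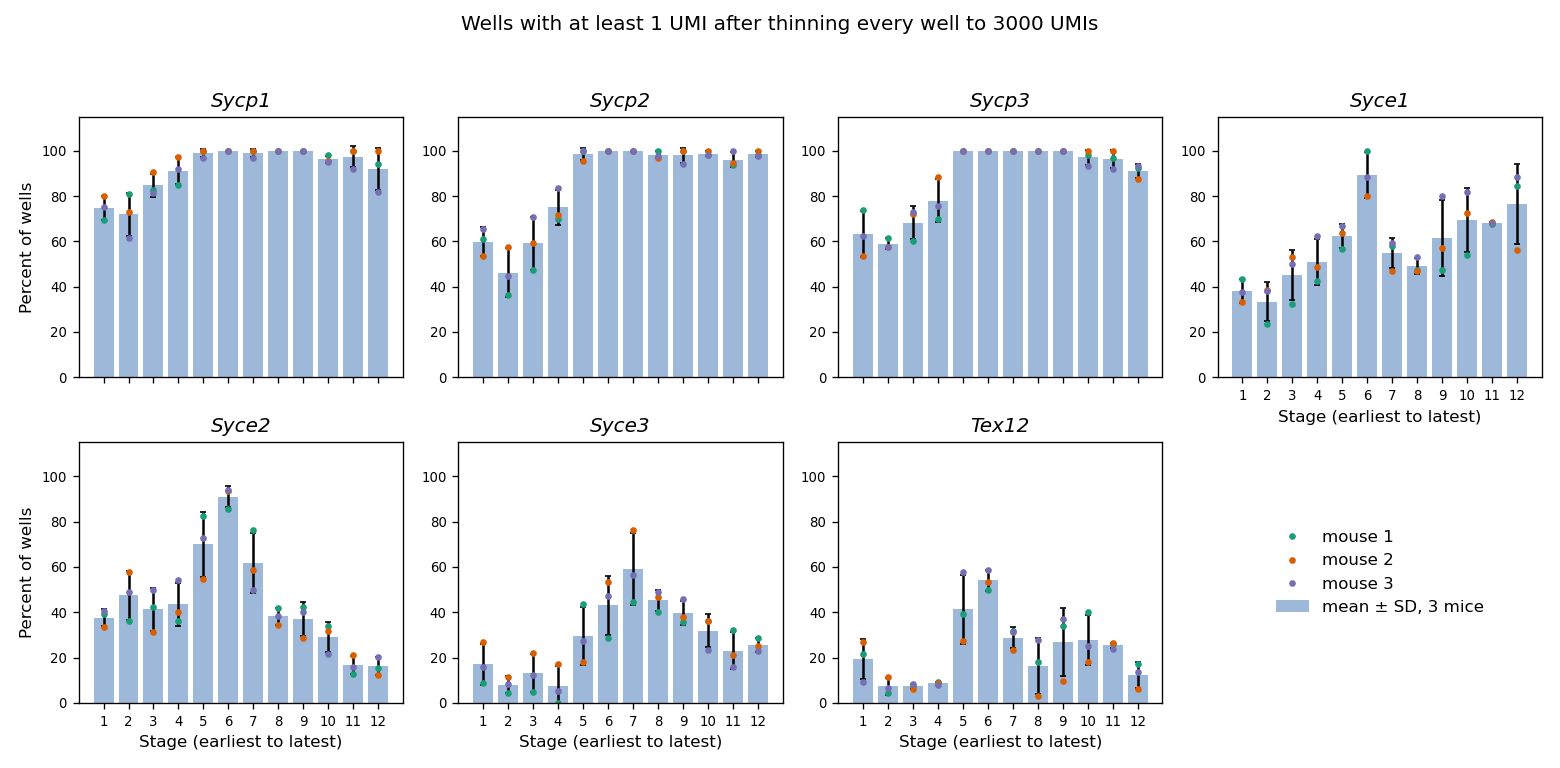
Percent of wells with at least 1 UMI of each component (y axis) by stage (x axis) after thinning to 3000 UMIs per well, with bars for the mean of 3 mice, error bars for the SD and points for each mouse. Sycp1, Sycp2 and Sycp3 are found in nearly all wells from stage 5 on, and Syce2 falls from 91.1% at stage 6 to 16.1% at stage 12.

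Unthinned, with a median of 26884 UMIs per well at stage 1 and 78424 at stage 12, a Syce2 UMI was found in 91.3% ± 4.1 and 91.6% ± 4.2 of wells, and all 7 components in 41.4% ± 9.5 and 83.3% ± 7.8. Sycp1, Sycp2 and Sycp3 UMIs were found in 95.8%, 96.5% and 91.9% of unthinned wells at stage 1 and in 100% at stage 6. Most spermatogonia-like wells thus held at least 1 UMI of each of these genes, and the contrast with meiotic entry was much smaller than after thinning. Wells under 1000 UMIs held the 7 components at 4914 CPM, and there were no control wells without cells. Whether such UMIs came from the cell of the well was not tested. Counts of a common RNA can also saturate the UMIs: with 4 random bases mouse 1 has 256 possible tags, and its fullest well held 223 UMIs of Sycp1 and 217 of Sycp2. Counts corrected by the authors for such collisions left all calls of the 3 comparisons in place, but at the steps Sycp1 (-0.25, adjusted p = 0.0775) and Sycp2 (-0.33, adjusted p = 0.0501) lost their calls from stage 8 to 9 and Sycp1 gained one from stage 6 to 7 (0.38, adjusted p = 0.0232). Of the 768 wells of mouse 1, 2 stood in the corrected table at the same column position as in the UMI table, so its wells were matched by their profiles, each to a different column (lowest correlation 0.973).

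The other genes of the complex and its axes were a list of 13, of which 12 were tested and Sycp2l was not in the table. At meiotic entry 8 of 12 were higher and 1 lower, beside 27.6% and 38.0% of all genes tested, with a median log2 fold change of 1.43 beside -0.18. Hormad1 (3.67 ± 0.12), Hormad2 (2.98 ± 0.39), both sensors of unsynapsed axes, and the meiotic cohesin gene Rad21l (2.78 ± 0.63) rose, and Trip13, the ATPase that strips HORMA proteins from synapsed axes, fell by 1.09 ± 0.14. In pachytene-like stages 8 of 12 were lower, beside 30.2% of all genes (median -0.73 beside 0.09), led by Rad21l (-5.01 ± 0.62), Smc3 (-3.13 ± 0.09) and Rec8 (-2.39 ± 0.84), and 1 of 12 was higher, beside 36.9% of all genes: Syce1l, a paralog of Syce1 (2.08 ± 0.35). Over the whole series 5 were higher, with Syce1l at 2.91 ± 0.38, Hormad1 at 2.82 ± 0.17 and Stag3 at 1.70 ± 0.12, and 6 were lower (median -0.36 beside -0.10), with 36.3% of all genes higher and 39.9% lower, and with Rad21l at -4.28 ± 1.23, Smc3 at -3.60 ± 0.17 and Trip13 at -1.67 ± 0.17.

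Of 24 listed genes of homologue pairing and synapsis, 19 were tested. At entry, where 27.6% of all genes were higher and 38.0% lower, 14 rose and 2 fell (median 1.56 beside -0.18), led by Meiob (5.40 ± 0.29), Spdya (3.94 ± 0.15), Spo11 (3.92 ± 0.19), Fkbp6 (-1.24 ± 0.10) and Sun2 (-1.12 ± 0.43). In pachytene-like stages, where 36.9% of all genes were higher and 30.2% lower, 4 rose and 9 fell (median -0.32 beside 0.09), with the recombinase gene Dmc1 at -4.93 ± 0.13 and Tex11 at -5.19 ± 0.18 far below any of the 7 components, and with Mlh3, a crossover mismatch-repair gene, at 2.02 ± 0.15. From stage 1 to stage 12, 13 rose and 5 fell (median 1.45 beside -0.10), where 36.3% of all genes were higher and 39.9% lower. Genes of the 3 lists were left out of the clustering but not of the markers that named the stages. For a list gene that is also a marker, as may hold for Dmc1 and Stra8, the naming favours a change between named stages. Of 18 listed regulators of meiotic genes 15 were tested, and they were mixed at entry, with 6 higher, among them Mybl1 (4.08 ± 0.34), a transcription factor of pachytene genes, and Ythdc2 (2.50 ± 0.12), and 6 lower, among them Dmrt1 (-5.19 ± 0.20) and Sohlh1 (-4.65 ± 0.31), both spermatogonial factors. In pachytene-like stages 4 rose and 7 fell, with Stra8 at -3.28 ± 0.28 and Tcfl5 at 1.82 ± 0.11, and from stage 1 to stage 12, 7 rose and 8 fell. Of all genes, 27.6% were higher and 38.0% lower at entry, 36.9% and 30.2% in pachytene-like stages and 36.3% and 39.9% from stage 1 to stage 12.

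Several components share sequence or position with other genes, and the strand used in counting is not given in the sources used here. In the annotation Sycp3 (chromosome 10, 88459569 to 88473236) overlaps Chpt1 on the opposite strand, Syce2 (chromosome 8, 84872111 to 84888221) overlaps Gcdh and Tex12 (chromosome 9, 50556819 to 50561325) overlaps Il18. Chpt1 was highest at stage 2, at 70.1 ± 15.9 CPM (SD, n = 3) where Sycp3 stood at 402 ± 72.6 CPM, and lowest at stage 6, at 3.34 ± 5.79 CPM where Sycp3 stood at 2977 ± 279.5 CPM. Gcdh stood at no more than 17.7 ± 15.9 CPM in any stage. Il18 had 111 UMIs over all stages and, like Tex12, was highest at stage 6, at 31.3 ± 12.6 CPM. Sycp1 has a pseudogene row in the table, Sycp1-ps1 on chromosome 7, at 20.5 ± 19.2 CPM at stage 1 and 103 ± 109.6 CPM at stage 8, where Sycp1 stood at 3337 ± 32.5 CPM, and how the authors shared reads between the copies is not given in the sources used here.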

How the data were processed

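Members and gene lists were chosen with earlier results of these data known. Per the submitters' processing notes, BWA 0.7.10 and mm10 were used, and the counting tool and strand are not given in the sources used here. The authors deposited UMI counts and read counts per gene and well, and transcripts, which are estimated counts corrected for UMI collisions and were rounded here. All 1920 columns belonged to a mouse and 0 were left unused, and the 8 libraries of mouse 1 could not be separated.

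Wells with at least 1000 UMIs were kept, aligned over mice with Seurat 5.3.0 (anchors on 1500 variable genes of odd-numbered autosomes), clustered with Leiden at resolution 1.0 and ordered by diffusion pseudotime (scanpy 1.11.5) from undifferentiated spermatogonia. Single cells were sorted, and no doublet caller was run. Clusters were named from listed markers, 2 clusters of low depth were left out, and a cluster that protamine RNA in few wells would have named spermatid stayed unnamed. UMIs were summed into 36 sums (99742 to 4674400 UMIs), filtered with filterByExpr and tested with edgeR 4.0.16 (TMM, quasi-likelihood, Benjamini-Hochberg over 11186 genes, threshold 0.05), with the mouse as a block because all stages came from the same animals, and again with ERCC UMIs (2890 to 44241 per sum) as the offset. DESeq2 1.42.0 in R 4.3.3 was an alternative. The code was tested on simulated data. Named genes were the 7 components, the 3 called genes of largest change per list and direction, and the nearest profiles. Coordinates are GENCODE M21 on GRCm38, and promoters are RefSeq on GRCm38.p6.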

Additional observations from a re-analysis of the deposited data

Results flagged for a closer look

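Wells outside the 12 stages also held UMIs of the components, which no comparison used. The 472 wells under 1000 UMIs, with a median of 342 UMIs, held 882 UMIs of the 7 components together, or 4914 CPM, with Sycp2 at 1655, Sycp1 at 1421 and Sycp3 at 1332 CPM. A cluster of 104 wells left out for its low depth, with a median of 2047.5 UMIs, held 896 UMIs of the 7, or 3358 CPM. Another left-out cluster of 59 wells, 50 of them from mouse 3, held 443 UMIs, or 3108 CPM. These levels lay between those of stages 1 and 6 and above the limit that a count of 0 allows, and there were no control wells without cells to set against them. Per 1000 ERCC UMIs the 3 sets held 8.58, 22.0 and 13.5 UMIs of the components.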

How the results depend on the processing

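Alternatives were DESeq2, median-ratio factors, an ERCC offset, no filter, collision-corrected transcripts, reads, wells with at least 2000 UMIs, at least 20 wells per sum, stages from even-numbered autosomes, Leiden resolution 0.6, no block, leaving out each mouse or the gate-sorted library and, added after seeing the data, leaving out wells rich in spermatid or Sertoli markers. DESeq2, even-numbered autosomes and resolution 0.6 were not run for the steps. Apart from the ERCC offset, calls among the 21 component results changed for Tex12 alone. Tex12 in pachytene-like against earlier stages was lost without a filter (-0.30) and with reads (-0.23), and with at least 20 wells per sum it stood at 0.17. Tex12 from stage 1 to 12 was lost with reads (0.50) and even-numbered autosomes (0.47). Without the mouse as a replicate block, 19 of 21 results and 63 of 77 steps kept their call, and the 2 lost were Tex12 at -0.36 and 0.53.

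The ERCC offset measures amount, not share, and moved most. At entry 4 components were higher and 2 lower (329 genes higher and 9385 lower), with Syce1 at -0.40, Syce2 at -0.65 and Tex12 at -0.10. In pachytene-like stages 7 were higher and 0 lower (9670 and 454 genes), with Sycp1 at 1.51, Sycp2 1.86, Sycp3 1.35, Syce2 0.52, Syce3 1.76 and Tex12 2.07. From stage 1 to 12, 0 components were lower (6777 genes higher, 2387 lower) and Syce2 stood at 0.10. Steps where the sign changed, with a call in either scaling, were 2 to 3 (Sycp3 -0.80, Syce1 -0.43), 7 to 8 (Sycp2 0.54, Syce1 0.15), 8 to 9 (Sycp1 0.64, Sycp2 0.56, Sycp3 0.23, Syce2 0.91, Syce3 0.75) and 9 to 10 (Sycp1 0.74, Sycp2 1.10, Sycp3 0.31, Syce2 0.90, Syce3 1.06, Tex12 1.26). Calls were opposite for Syce1 at 2 to 3, Sycp1 and Sycp2 at 8 to 9, and Sycp1 and Syce2 at 9 to 10. Syce1 at 7 to 8 and Sycp3 at 8 to 9 and 9 to 10 were not called per ERCC UMI. The rest were not called as a share of RNA, so no called change was reversed there. Per ERCC UMI, components lower at entry numbered 1 to 2 when a mouse was left out. The cause of these differences was not tested. Depth limits Syce3 and Tex12 most, with 43 and 46 UMIs at stage 4.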
